A study of Mus musculus with 8 samples.

Results

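MicroRNA levels were compared between Csk-/- mouse embryonic fibroblasts that had received both Csk and c-Src (Csk+c-Src cells) and Csk-/- fibroblasts that had received c-Src alone (c-Src cells). The comparison takes 4 of the 8 arrays of the series, 2 per group, chosen by the transfection named in their titles. The other 4 arrays hold the same Csk-/- fibroblasts with Csk alone (Csk cells, 2 arrays) or with an empty vector (mock cells, 2 arrays), and are used below for the effect of Csk without added c-Src. All groups are fibroblasts of C57BL/6J background whose own Csk gene is deleted, so any Csk in them comes from the transfection, and c-Src is added on top of the c-Src that the cells make themselves. The titles name the 2 arrays of a group as biological replicates, while the series text speaks of duplicate runs. No label states separate transfections, so p-values measure the spread between these arrays, which may be technical. The arrays carry no probe for the Csk or c-Src messages, and the transfections could not be checked from them.

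Csk is the kinase that phosphorylates the tail tyrosine of Src family kinases and so holds them in their closed, less active form. Fibroblasts without Csk lack this restraint, and adding c-Src to them is a known way to reach a transformed state that Csk can revert. MicroRNAs are short RNAs cut from hairpin precursors. Each guides the Argonaute complex to messenger RNAs mainly through its seed, bases 2 to 8, and microRNAs with 1 seed form a family with overlapping targets. Either arm of the hairpin can be kept. A star in the array's names marks the arm taken as less used when it was named, whatever its level here.

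The sequences below belong to the microRNAs on which the results turn, with the seed in capitals. They are mature sequences from RefSeq, with positions on build GRCm38.p6, written 5′ to 3′. The first set was higher in Csk+c-Src cells than in c-Src cells.
miR-503: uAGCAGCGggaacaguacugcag
miR-322: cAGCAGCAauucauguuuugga
miR-351: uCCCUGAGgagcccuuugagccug
miR-450b-5p: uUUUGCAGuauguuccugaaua
miR-542-3p: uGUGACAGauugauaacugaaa
miR-99a: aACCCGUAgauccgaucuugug
miR-27b: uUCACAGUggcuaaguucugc
miR-455: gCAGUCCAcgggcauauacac
miR-218: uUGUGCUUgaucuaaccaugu

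The second set was lower in Csk+c-Src cells than in c-Src cells, and is grouped by shared seed.
miR-146a: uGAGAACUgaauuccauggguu
miR-146b: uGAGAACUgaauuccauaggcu
miR-221: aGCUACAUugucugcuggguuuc
miR-222: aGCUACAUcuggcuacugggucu
miR-29a: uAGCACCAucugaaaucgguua
miR-29b: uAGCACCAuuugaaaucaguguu
miR-29c: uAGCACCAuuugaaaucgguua
miR-34b-5p: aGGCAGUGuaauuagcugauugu
miR-338-3p: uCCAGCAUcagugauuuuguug

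The third set is shown because members of 1 seed family went opposite ways: miR-10a with miR-10b, miR-193b with miR-193, miR-351 (above) with miR-125b-5p, and miR-322 (above) with miR-497 and miR-195.
miR-10a: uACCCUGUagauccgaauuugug
miR-10b: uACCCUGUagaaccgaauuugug
miR-193b: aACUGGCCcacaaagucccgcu
miR-193: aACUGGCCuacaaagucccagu
miR-125b-5p: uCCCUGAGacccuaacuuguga
miR-497: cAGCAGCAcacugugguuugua
miR-195: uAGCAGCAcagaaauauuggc

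Levels are given as relative signal: the summed background-subtracted intensity of a microRNA's probes, as a multiple of the 75th percentile of the 187 microRNAs that every array detected. Values under a floor of 0.0193 were set to it. Differences are log2(Csk+c-Src / c-Src) with the standard error (SE) from limma, fitted over all 8 arrays and 243 microRNAs, and a call is a Benjamini-Hochberg adjusted p from limma under 0.05. These 243 of the 611 mouse microRNAs on the array reached detection on both arrays of some group, and the other 368 were not tested.

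Of the 243 microRNAs, 109 were called (44.9%), 38 of them higher (15.6%) and 71 lower (29.2%) in Csk+c-Src cells than in c-Src cells. With so high a share called, a small count of called members says little about a family. In 172 of the 243 (70.8%) the arrays of the 2 groups did not overlap. The called differences were mostly small: 51 of the 109 were under 0.5 on the log2 scale, and 10 of the higher and 13 of the lower calls reached 2-fold. The median difference over all 243 was -0.08. Arrays of a group were close to each other, with r = 0.9985 between the Csk+c-Src arrays and r = 0.9978 between the c-Src arrays across the 243 microRNAs, against 0.9723 to 0.9733 between the groups. These r are descriptions, and microRNAs are not independent replicates. Of the called microRNAs, 65 had at least 2 probes above the floor on all 4 arrays. In 64 of the 65 every such probe went the called way, and the exception was miR-100.

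Some limits touch every value. The 8 arrays shared 1 slide, and each group filled a column of it, so slide column and group cannot be told apart. The balance of directions moved with the scaling: it was 63 higher and 39 lower with a 75th percentile over all mouse microRNAs. In the unscaled deposited table, which also differs in probe summary and floor, it was 26 higher and 91 lower. Without Csk array 2, which had 696 excluded spots against 270 to 351 on the others, the split was 56 higher and 49 lower, and without Csk+c-Src array 2 it was 37 higher and 45 lower. After another background correction, normexp, 18 of the 109 calls remained. It was run with an offset of 50 added to every spot, and such a constant shrinks the log2 differences of dim microRNAs. Some bright microRNAs lost the call with a nearly unchanged difference: miR-16 went from -0.250 to -0.254 and miR-26a from -0.394 to -0.375. For miR-22 the difference went from 0.57 to 0.53, and its SE from 0.069 to 0.13. The SE of miR-16 and miR-26a was 0.12 after normexp. In the main fit the median SE of the 81 brightest microRNAs was 0.065. The parts of the offset and of the larger SE in the lost calls were not tested. Normexp put the median relative signal of the 351 microRNAs that no array detected at 0.272, and 70 of the 109 called microRNAs had a mean level below that value. In what follows a microRNA said to pass with both background corrections is one of those 18.

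**Figure D1:**
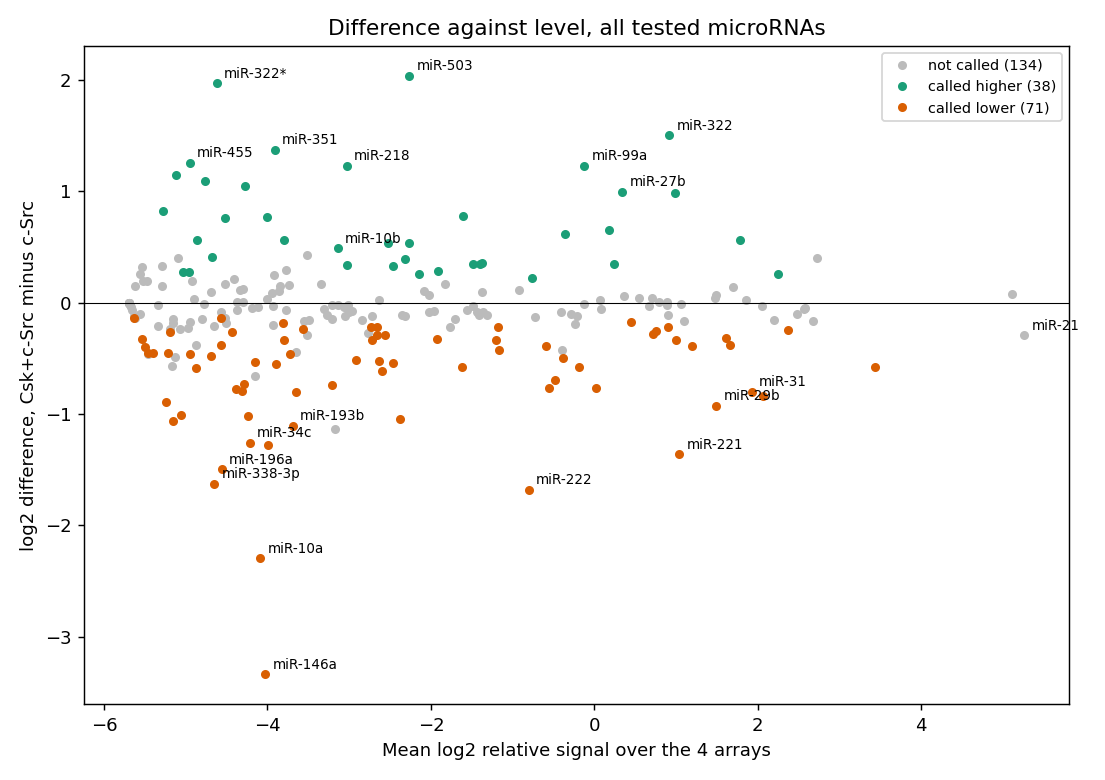
Each point is 1 of the 243 tested microRNAs. The horizontal axis is the mean log2 relative signal over the 2 Csk+c-Src and 2 c-Src arrays and the vertical axis the log2 difference, Csk+c-Src minus c-Src. Green points (38) were called higher, orange points (71) called lower and grey points (134) not called; the X-linked cluster leads the points above 0 and miR-146a and miR-10a those below.

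The clearest group among the higher microRNAs was a cluster on the X chromosome that runs from miR-322 to miR-450. Its 9 tested members all rose, beside 15.6% called higher over all 243. Their median was 1.09 against -0.08 over all 243, and 2 more names on the array, miR-450a-3p and miR-503*, were undetected in both groups. miR-322 (chrX:53054306-53054327, minus strand) and miR-503 have near-identical seeds of the miR-16 type, which are known for targeting cyclins and other cell-cycle messages. miR-503 was at 0.453 and 0.391 on the Csk+c-Src arrays, against 0.103 and 0.102 on the c-Src arrays (log2 difference 2.04, SE 0.10, adjusted p = 8.42e-05). The cluster's brightest microRNA, miR-322, was at 3.12 and 3.22 in Csk+c-Src cells and at 1.06 and 1.18 in c-Src cells (log2 difference 1.5, SE 0.090, adjusted p = 0.000156). Its other arm, miR-322*, was at 0.0803 and 0.0807 in Csk+c-Src cells and at 0.0208 and 0.0203, just above the floor, in c-Src cells (log2 difference 1.97, SE 0.033, adjusted p = 4.7e-06). In all 3 the arrays of the 2 groups were far apart compared with the gap between arrays of a group.

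The remaining members had smaller differences. miR-351 was at 0.111 and 0.104 in Csk+c-Src cells and at 0.0443 and 0.0385 in c-Src cells (log2 difference 1.38, adjusted p = 0.000231). miR-450b-5p (chrX:53048044-53048065, minus strand) was at 0.0577 and 0.0501 in Csk+c-Src cells, against 0.0307 and 0.0207 in c-Src cells, where 1 of the 2 arrays detected it (log2 difference 1.09, SE 0.20, adjusted p = 0.00777); the call ended in a fit of the 4 arrays alone (adjusted p = 0.0517). Its partner arm miR-450b-3p rose by 0.76 (adjusted p = 0.00226, or 0.0757 with outlier spots kept) and miR-450a-5p by 0.53 (adjusted p = 0.000576). miR-542-3p, which in human cells is known to target survivin, was at 0.0859 and 0.0889 in Csk+c-Src cells, against 0.0587 and 0.0596 in c-Src cells (log2 difference 0.56, SE 0.084, adjusted p = 0.00382). miR-450b-5p, miR-450b-3p and miR-542-5p had 0 probes above the floor on all 4 arrays, and their values are sums over dim probes. With the floor doubled miR-542-5p was at 0.22 (adjusted p = 0.141), and in a fit of the 4 arrays alone its adjusted p was 0.0618. The smallest rise was that of miR-542-5p (0.41, adjusted p = 0.0181). Its adjusted p was 0.12 without Csk+c-Src array 2, 0.091 and 0.0535 without c-Src arrays 1 and 2, and 0.0547 without mock array 2, while 0.35 was the lowest difference in these fits.

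Summed over the 9 members, the cluster's signal was 4.26 and 4.29 on the Csk+c-Src arrays, against 1.56 and 1.64 on the c-Src arrays. Of these 9, miR-322 and miR-503 passed with both background corrections, and after normexp all 9 differences stayed above 0, with a median of 0.31. Without added c-Src, miR-322 was at 8.05 and 9.18 in Csk cells and at 3.58 and 3.93 in mock cells, and miR-503 at 0.991 and 0.908 in Csk cells and at 0.622 and 0.544 in mock cells. The levels of miR-322 and miR-503 in Csk+c-Src cells thus lay below those in mock cells and above those in c-Src cells.

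**Figure D2:**
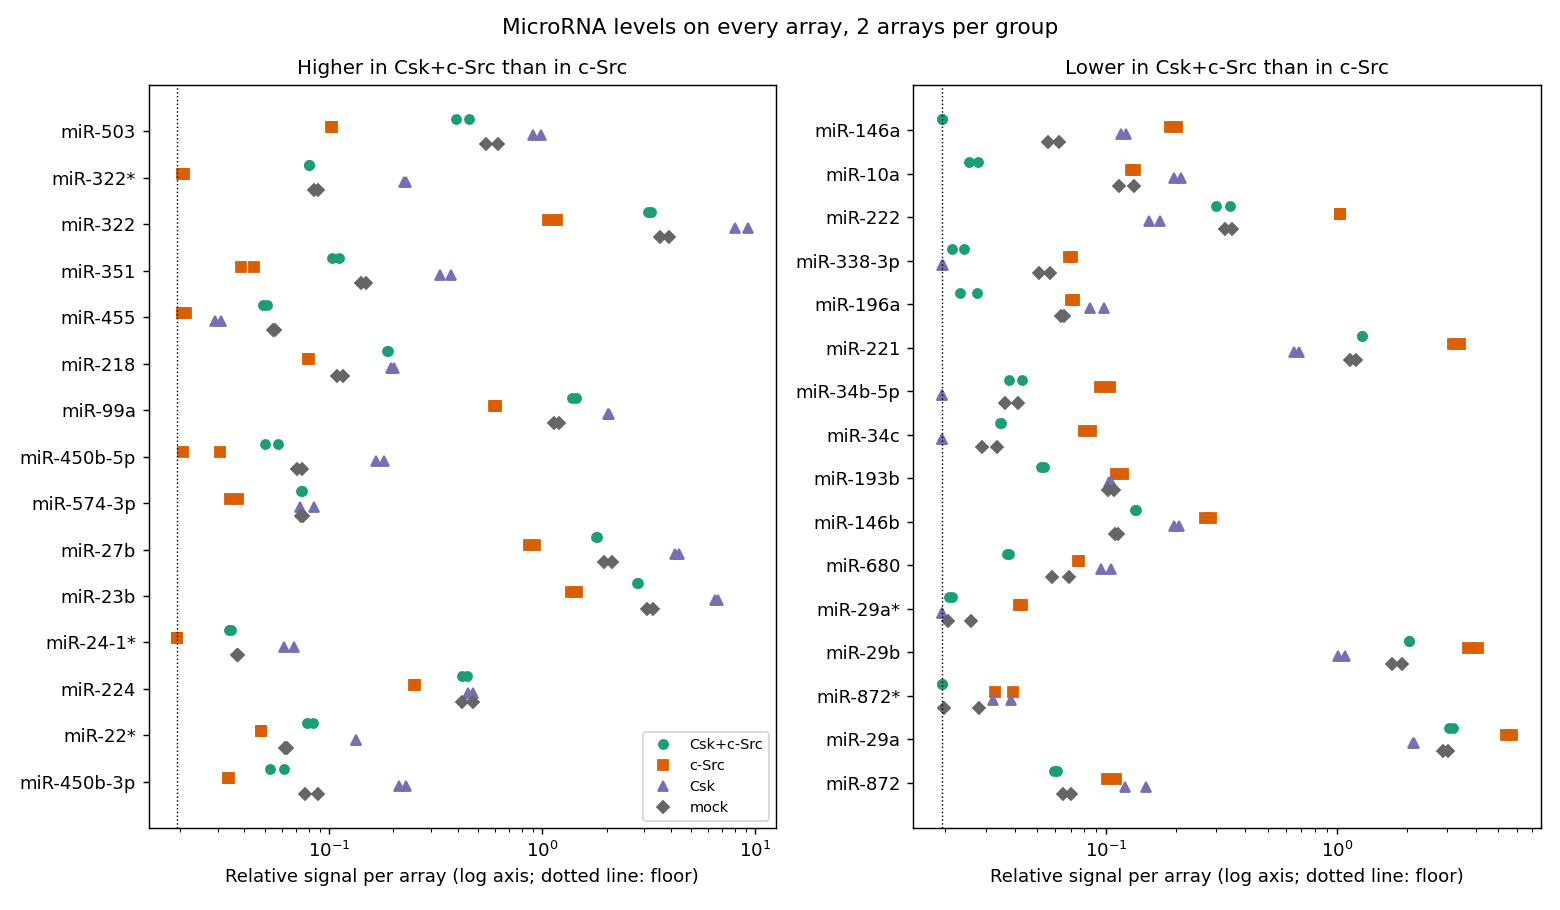
Relative signal on each array (horizontal log axis) for the 15 largest rises and the 15 largest falls detected in both groups, with miR-146a added at the top of the falls. Circles are Csk+c-Src, squares c-Src, triangles Csk and diamonds mock arrays, 2 each; the dotted line is the floor of 0.0193. For each microRNA shown the circles and squares do not overlap.

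Rises outside the X chromosome also came in linked sets. The genes of miR-23b, miR-27b and miR-24-1 lie together on chromosome 13, within the span of Aopep, and their paralogues miR-23a, miR-27a and miR-24-2 on chromosome 8. miR-27b (chr13:63300760-63300780, plus strand) was at 1.80 and 1.78 in Csk+c-Src cells, against 0.868 and 0.927 in c-Src cells (log2 difference 1.0, SE 0.055, adjusted p = 0.000109). miR-23b was at 2.82 and 2.78 in Csk+c-Src cells, against 1.36 and 1.46 in c-Src cells (log2 difference 0.99, adjusted p = 8.42e-05), and miR-24-1* rose by 0.82 (adjusted p = 0.00021), with c-Src array 1 at the floor and array 2 just above it, a call that ended with the floor doubled, which put all 4 arrays at the floor. The chromosome 8 copies did not pass: miR-23a differed by -0.04 (SE 0.057, adjusted p = 0.594) and miR-27a by 0.02 (SE 0.075, adjusted p = 0.861), with overlapping arrays. Under quantile normalisation miR-27a passed (0.23, adjusted p = 0.00333). miR-27a carries U19C relative to miR-27b, counted from the 5′ end. With 1 base between them, cross-hybridisation of their probes was not tested. miR-24, which is made from both loci, rose by 0.25 (adjusted p = 0.00543), and its call ended in the unscaled table (0.14, adjusted p = 0.225). miR-23b and miR-27b passed with both background corrections. Over the whole list 4 of 7 tested members rose and 0 fell, beside 15.6% called higher and 29.2% lower over all 243.

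miR-99a (chr16:77598940-77598961, plus strand), whose known targets include Mtor, was at 1.43 and 1.38 in Csk+c-Src cells, against 0.591 and 0.609 in c-Src cells (log2 difference 1.23, SE 0.038, adjusted p = 3.56e-05). It passed with both background corrections and lay at 2.06 and 2.02 in Csk cells and at 1.14 and 1.19 in mock cells. let-7c-1*, from the hairpin next to it, was undetected on both c-Src arrays and at least 2.21-fold higher in Csk+c-Src cells (adjusted p = 0.00607). That call ended without c-Src array 2 (adjusted p = 0.0548), with outlier spots kept (adjusted p = 0.0504) and with the floor doubled (adjusted p = 0.674). The main arm let-7c, also made from a locus on chromosome 15, was at 3.25 and 3.56 in Csk+c-Src cells and at 2.99 and 3.17 in c-Src cells and did not pass (log2 difference 0.14, adjusted p = 0.269, or 0.0315 with the replicate number as a block). miR-100, which differs from miR-99a by U16A and is encoded on chromosome 9, was at 0.441 and 0.431 in Csk+c-Src cells, against 0.335 and 0.345 in c-Src cells (log2 difference 0.36, adjusted p = 0.000576). The 2 probes of miR-100 went opposite ways, by -0.72 and 0.58. Its difference shrank to 0.0028 when probes were averaged on the log scale (adjusted p = 0.969).

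Several rises belong to microRNAs of cartilage and connective tissue. miR-140 and miR-140*, from a hairpin inside Wwp2, are known from cartilage, and miR-455 lies inside the collagen gene Col27a1. miR-140* was at 1.44 and 1.40 in Csk+c-Src cells and at 0.869 and 0.938 in c-Src cells (log2 difference 0.65, SE 0.059, adjusted p = 0.000576). miR-140 rose by 0.62 (adjusted p = 0.0064), a call that ended without Csk+c-Src array 2 (0.65, adjusted p = 0.059). Both arms passed with both background corrections. miR-455 was at 0.0511 and 0.0489 in Csk+c-Src cells, against 0.0213 and 0.0205 in c-Src cells (log2 difference 1.26, SE 0.047, adjusted p = 4.53e-05). The c-Src values of miR-455 were just above the floor, and after normexp its difference was 0.30 (adjusted p = 0.761).

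Of the remaining large rises, miR-218, which is encoded within both Slit2 and Slit3, was at 0.186 and 0.190 in Csk+c-Src cells, against 0.0796 and 0.0805 in c-Src cells (log2 difference 1.23, SE 0.041, adjusted p = 3.97e-05). The arms of miR-574 rose by 1.05 (miR-574-3p, adjusted p = 0.000385) and 0.53 (miR-574-5p, adjusted p = 0.00402). miR-224 was at 0.441 and 0.422 in Csk+c-Src cells and at 0.251 and 0.253 in c-Src cells (log2 difference 0.78, adjusted p = 0.000474). miR-22, a bright microRNA of many differentiated cells, was at 4.28 and 4.07 in Csk+c-Src cells, against 2.71 and 2.94 in c-Src cells (log2 difference 0.57, adjusted p = 0.00181), and miR-22* rose by 0.77 (adjusted p = 8.42e-05). None of these passed after normexp, where miR-22 had an adjusted p of 0.0503.

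The largest fall was that of miR-146a (chr11:43374435-43374456, minus strand), an NF-κB induced microRNA that damps the signalling of innate immune receptors. It was undetected on both Csk+c-Src arrays and read 0.189 and 0.202 on the c-Src arrays. Taken against the floor it was at least 10.1-fold lower in Csk+c-Src cells (adjusted p = 5.84e-06). That bound moves with the floor: the median log2 difference of miR-146a and miR-146b was -2.19, and -1.69 with the floor doubled. After normexp the log2 difference of miR-146a was -1.03. Csk cells read 0.116 and 0.122 and mock cells 0.0557 and 0.0625, so Csk+c-Src cells were the 1 group of the 4 without detection. Its relative miR-146b, encoded on chromosome 19 and different at G18A and U21C, was at 0.133 and 0.135 in Csk+c-Src cells, against 0.268 and 0.283 in c-Src cells (log2 difference -1.04, SE 0.041, adjusted p = 4.53e-05). miR-146a passed with both background corrections and miR-146b did not.

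miR-221 and miR-222 are neighbours on the X chromosome with 1 seed, and are known for targeting the cell-cycle inhibitor Cdkn1b. miR-221 (chrX:19146307-19146329, minus strand) was at 1.28 on both Csk+c-Src arrays, against 3.19 and 3.42 on the c-Src arrays (log2 difference -1.36, SE 0.052, adjusted p = 4.53e-05). miR-222 was at 0.344 and 0.299 in Csk+c-Src cells, against 1.03 on both arrays of c-Src cells (log2 difference -1.68, SE 0.091, adjusted p = 0.000107). The levels in Csk+c-Src cells lay near those of mock cells, where miR-221 read 1.13 and 1.20 and miR-222 read 0.352 and 0.326. Csk cells were lowest, at 0.650 and 0.682 for miR-221 and at 0.171 and 0.153 for miR-222. Both passed with both background corrections.

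All 5 tested arms of the miR-29 hairpins fell in Csk+c-Src cells. The median of the 5 was -0.84 against -0.08 over all 243, of which 29.2% were called lower. miR-29a, miR-29b and miR-29c share the seed of the miR-29 family, which is known for targeting collagens and other matrix messages. miR-29a was at 3.18 and 3.05 in Csk+c-Src cells and at 5.41 and 5.73 in c-Src cells (log2 difference -0.84, SE 0.046, adjusted p = 0.000107). miR-29b was at 2.05 and 2.04 in Csk+c-Src cells and at 3.70 and 4.07 in c-Src cells (log2 difference -0.92, SE 0.072, adjusted p = 0.000341). miR-29c fell by 0.76 (adjusted p = 0.000231). These 3, encoded on chromosomes 6 and 1, passed with both background corrections. miR-29a and miR-29c are near-identical, and cross-hybridisation of their probes was not tested. The minor arms fell too, miR-29a* by 1.01 (adjusted p = 0.00113) and miR-29b* by 0.79 (adjusted p = 0.00209). Summed over the 5 arms, the signal was 6.09 and 5.91 in Csk+c-Src cells and 10.5 and 11.3 in c-Src cells.

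In the p53-responsive miR-34 family 2 of 3 tested members fell, beside 29.2% called lower over all 243. miR-34b-5p was at 0.0432 and 0.0378 in Csk+c-Src cells, against 0.0935 and 0.103 in c-Src cells (log2 difference -1.28, SE 0.10, adjusted p = 0.000341), and miR-34c, from the same transcript on chromosome 9, fell by 1.26 (SE 0.078, adjusted p = 0.000174). miR-34a, encoded on chromosome 4, was at 0.132 and 0.136 in Csk+c-Src cells and at 0.152 and 0.171 in c-Src cells (log2 difference -0.27, adjusted p = 0.061) and did not pass. It did pass with the replicate number, which is also the slide row, as a block (adjusted p = 0.00673), and with 4 other settings, among them the unscaled table (-0.39, adjusted p = 0.014). Neither miR-34b-5p nor miR-34c passed after normexp.

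Among bright single microRNAs, miR-31 was at 3.0 and 2.76 in Csk+c-Src cells, against 4.96 and 5.07 in c-Src cells (log2 difference -0.80, SE 0.053, adjusted p = 0.000216), and its arm miR-31* fell by 0.58 (adjusted p = 0.00217). miR-210, the microRNA best known for its induction by low oxygen, was at 0.570 and 0.559 in Csk+c-Src cells, against 0.863 and 0.964 in c-Src cells (log2 difference -0.69, SE 0.073, adjusted p = 0.00112). miR-148a was at 0.526 and 0.517 in Csk+c-Src cells, against 0.850 and 0.931 in c-Src cells (log2 difference -0.77, adjusted p = 0.000313). All 4 passed with both background corrections. miR-21, one of the brightest microRNAs with 14.4% and 15.5% of the summed signal in Csk+c-Src cells and 16.4% and 17.5% in c-Src cells, did not pass. Its relative signal was 34.0 and 35.4 in Csk+c-Src cells, against 40.0 and 45.2 in c-Src cells (log2 difference -0.29, SE 0.11, adjusted p = 0.0943). Its minor arm miR-21* differed by 0.25 (adjusted p = 0.0543). With the replicate block both arms passed, in opposite directions (adjusted p = 0.0127 for miR-21 and 0.0176 for miR-21*). miR-145 was undetected and not tested.

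Other falls were in dim microRNAs. miR-338-3p, encoded within the neural kinase gene Aatk, was at 0.0213 and 0.0241 in Csk+c-Src cells, against 0.0688 and 0.0712 in c-Src cells (log2 difference -1.63, SE 0.079, adjusted p = 8.42e-05). miR-721 was undetected on both Csk+c-Src arrays and at least 2.10-fold lower there than in c-Src cells, which read 0.0380 and 0.0432 (adjusted p = 0.000292). miR-721 ceased to pass with the floor doubled (-0.08, adjusted p = 0.548). miR-680 fell by 1.02 (adjusted p = 0.000576) and miR-872 by 0.80 (adjusted p = 0.00301), the call of miR-872 ending when outlier spots were kept (adjusted p = 0.508). miR-872*, at the floor on both Csk+c-Src arrays though 1 of them detected it, was lower by 0.90 (adjusted p = 0.0155), a size that rests on the floor. That call ended with the floor doubled (-0.01, adjusted p = 0.397), with no detection filter (adjusted p = 0.0899), and without either Csk+c-Src array (adjusted p = 0.0744 and 0.0696 without arrays 1 and 2), either c-Src array (adjusted p = 0.0873 and 0.0554) or Csk array 2 (adjusted p = 0.0526). miR-290-5p was undetected in Csk+c-Src cells and at least 1.5-fold lower (adjusted p = 0.0177). Its call ended in 7 other fits and in those without either Csk+c-Src array (adjusted p = 0.0891 and 0.0635), c-Src array 1 (0.0612) or Csk array 2 (0.148). None of the microRNAs in this paragraph passed after normexp.

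4 seed families split between the directions. miR-10a and miR-10b, encoded in the Hoxb and Hoxd clusters, differ at 1 base, U12A. miR-10a (chr11:96317186-96317208, within Hoxb3) was at 0.0277 and 0.0255 in Csk+c-Src cells, against 0.128 and 0.133 in c-Src cells (log2 difference -2.29, SE 0.090, adjusted p = 4.53e-05). miR-10b (chr2:74726074-74726096) was at 0.129 and 0.139 in Csk+c-Src cells, against 0.0925 and 0.0987 in c-Src cells (log2 difference 0.49, SE 0.058, adjusted p = 0.00167). The other Hox cluster microRNAs were lower: miR-196a was at 0.0231 and 0.0276 in Csk+c-Src cells, against 0.0722 and 0.0702 in c-Src cells (log2 difference -1.49, SE 0.11, adjusted p = 0.000282). miR-196b, which differs from miR-196a by A12C and lies in the Hoxa region, had a difference of -0.47 (adjusted p = 0.0246). This last call ended in many other fits: the adjusted p was 0.117 and 0.0664 without Csk+c-Src arrays 1 and 2, 0.0567 and 0.173 without c-Src arrays 1 and 2, 0.136 without Csk array 2 and 0.0609 without mock array 2. None of these 4 passed after normexp, where miR-10a was at -0.55 (adjusted p = 0.104).

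In the seed family of miR-16, miR-322 rose as given above while 3 of the 5 others fell, beside 29.2% called lower over all 243. miR-497 was at 0.132 and 0.135 in Csk+c-Src cells, against 0.196 and 0.213 in c-Src cells (log2 difference -0.61, adjusted p = 0.00126), and miR-195, from the same locus on chromosome 11, fell by 0.54 (adjusted p = 0.0018). miR-16, the brightest of the family, was at 4.82 and 4.69 in Csk+c-Src cells and at 5.40 and 5.91 in c-Src cells (log2 difference -0.25, adjusted p = 0.0122). For miR-16 the adjusted p was 0.241 without Csk+c-Src array 2, 0.0621 without c-Src array 2, 0.059 without Csk array 2 and 0.0969 without mock array 2, and the call also ended under 2 of the other scalings. miR-15a (-0.16, adjusted p = 0.104, or 0.0268 in the unscaled table) and miR-15b (-0.03, adjusted p = 0.812) did not pass. Summed over these 5 and the minor arm miR-15b*, the signal was 11.3 and 11.2 in Csk+c-Src cells, against 12.1 and 13.2 in c-Src cells.

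miR-351 shares its seed with miR-125b-5p and miR-125a-5p, the mammalian lin-4 relatives. miR-125b-5p, the brightest called microRNA, was at 8.78 and 8.91 in Csk+c-Src cells, against 12.5 and 13.9 in c-Src cells (log2 difference -0.58, SE 0.064, adjusted p = 0.00126). It passed with both background corrections but not under quantile normalisation (-0.24, adjusted p = 0.289). miR-125a-5p did not pass (0.06, adjusted p = 0.793). miR-193b and miR-193, which differ at C9U, G20A and C21G, also split. miR-193b was at 0.0537 and 0.0521 in Csk+c-Src cells, against 0.110 and 0.118 in c-Src cells (log2 difference -1.11, SE 0.049, adjusted p = 7.41e-05). miR-193 was at 0.256 and 0.237 in Csk+c-Src cells and at 0.202 and 0.211 in c-Src cells (log2 difference 0.26, adjusted p = 0.00821), and its call ended without mock array 2 (adjusted p = 0.0547), in the unscaled table (adjusted p = 0.227) and under quantile normalisation (adjusted p = 0.0552).

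**Figure D3:**
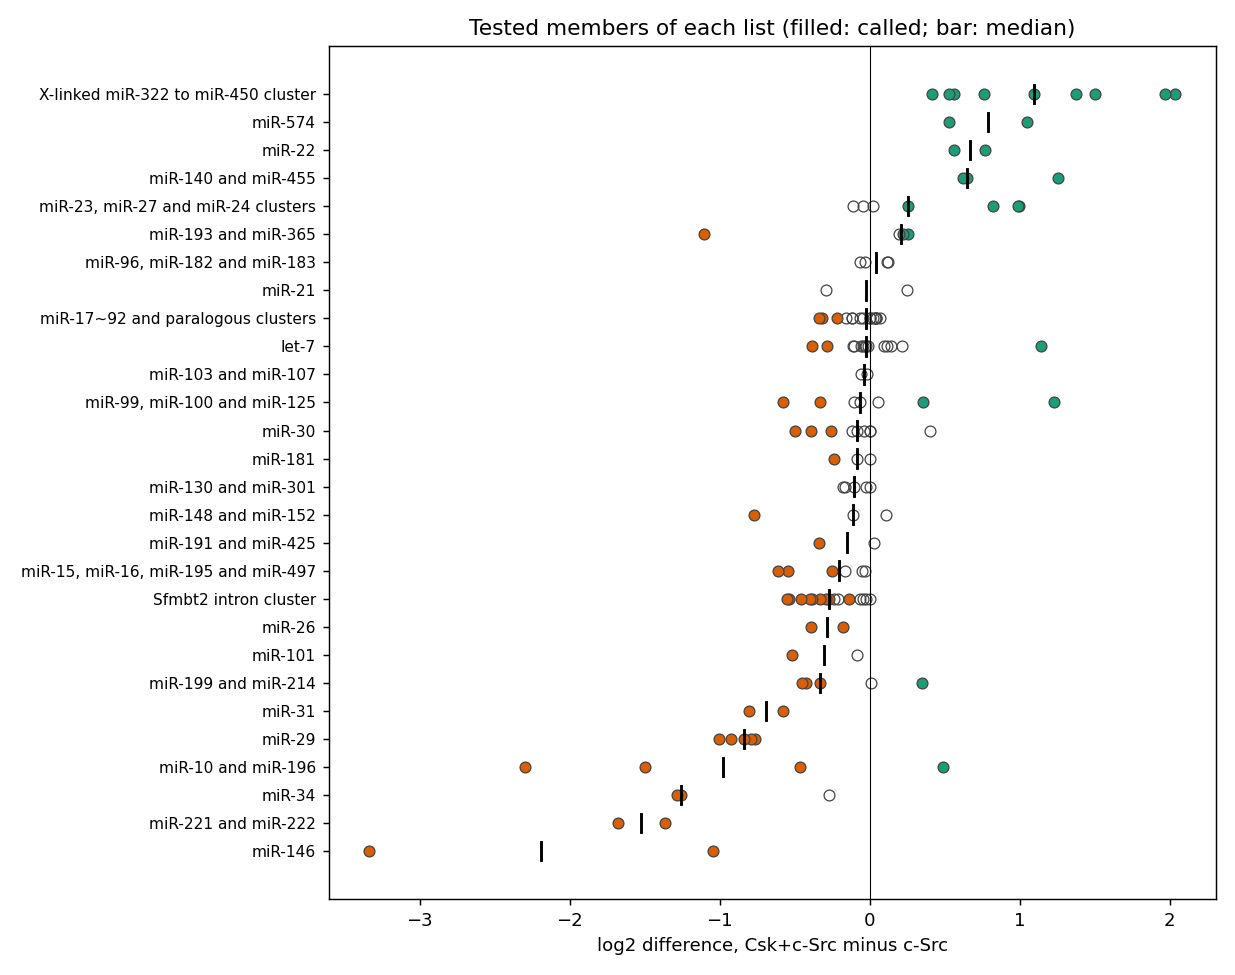
Each point is a tested microRNA, placed by its log2 difference, Csk+c-Src minus c-Src, in the row of its family or genomic cluster. Filled points were called (green higher, orange lower), open points were not, and the bar is the row's median. The X-linked cluster and miR-29 have all members called 1 way, while the rows of miR-10 with miR-196 and of miR-99 with miR-100 and miR-125 hold points called on both sides of 0.

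Families known for proliferation are given by their counts, beside 15.6% called higher and 29.2% called lower over all 243. Of 16 tested members of miR-17~92 and its paralogous clusters 0 rose and 3 fell, all of them from the cluster within Mcm7, and the list's median was -0.02. The direction of these calls turned with the scaling: 5 rose and 0 fell with the percentile over all mouse microRNAs, and 5 rose and 2 fell without Csk array 2. In let-7 1 of 14 rose, the minor arm given above, and 2 fell, with a median of -0.03. The miR-103 and miR-107 pair, the 5 of miR-130 and miR-301, and the 4 of miR-96, miR-182 and miR-183 held 0 calls by limma. In miR-30 0 rose and 3 of 9 fell, a share near the 29.2% called lower over all 243: miR-30c by 0.50 (adjusted p = 0.000292), miR-30e by 0.39 (adjusted p = 0.00102) and miR-30a by 0.26 (adjusted p = 0.00322). The call of miR-30a ended without Csk+c-Src array 2 (-0.19, adjusted p = 0.1). miR-26a fell by 0.39 (adjusted p = 0.00152). Scaling by a percentile over all mouse microRNAs ended the calls of miR-30a, miR-30e and miR-26a and put the medians of let-7, miR-30 and miR-17~92 above 0. In the intron of Sfmbt2, a rodent cluster with many near-identical members, 9 of 15 fell, led by miR-467b (-0.55, adjusted p = 8.42e-05) and miR-669a (-0.54, adjusted p = 8.41e-05). Probes of such members can share targets, and after normexp 0 of the 15 passed, with a median of 0.04.

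The arms of a hairpin are read by separate probes. For 48 pairs both arms were tested, with miR-24 counted beside each of its 2 minor arms. In 14 pairs both arms were called, all 14 in the same direction, in 18 pairs 1 arm was called, and in 16 neither was. The pairs called on both arms include miR-322, miR-450b, miR-542, miR-574, miR-22, miR-140 and miR-24 with miR-24-1* among the rises, and miR-29a, miR-29b, miR-31 and miR-872 among the falls. Sets of genes that lie within 10000 bases of each other were built from the 166 tested names with 1 locus. Of 14 such sets, 5 had every tested member called in 1 direction and 0 had members called in both directions. The other 9 had members that were not called, with 44.9% of all 243 microRNAs called. Names with more than 1 locus were left out, among them miR-365. It was called higher, while miR-193b, within 10000 bases of 1 of its loci, was called lower.

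**Figure D4:**
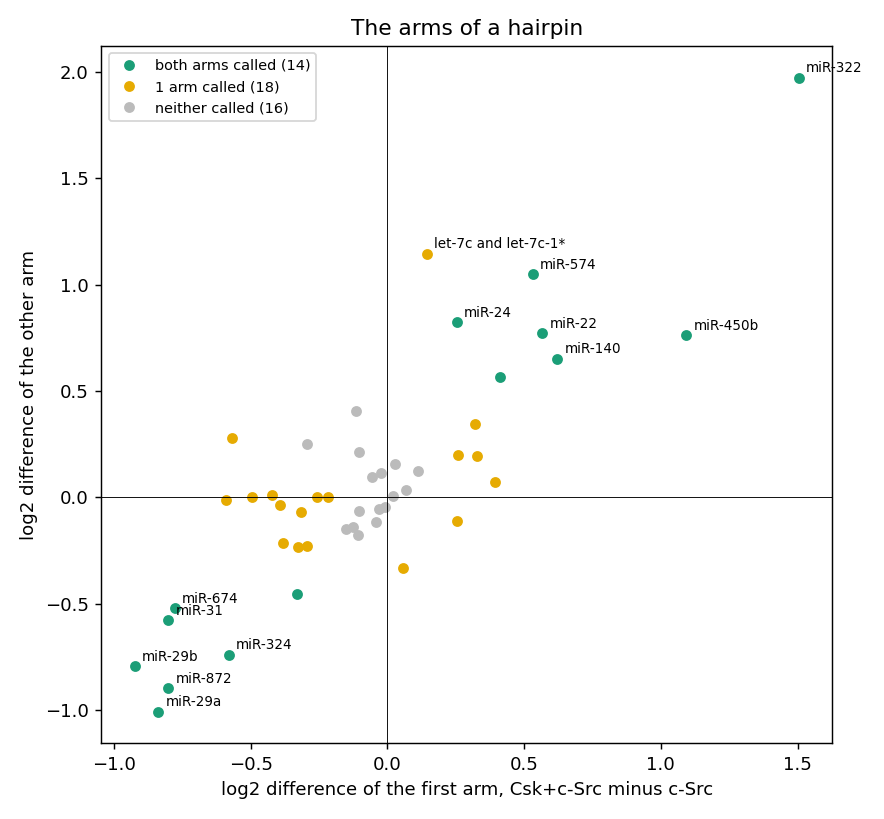
Each point is a hairpin with both arms tested, placed by the log2 difference, Csk+c-Src minus c-Src, of its first arm (horizontal) and of its other arm (vertical). Green marks pairs with both arms called (14), yellow 1 arm (18) and grey neither (16); the 14 green points lie at the upper right or lower left.

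The cells' labelled type was checked against microRNAs known from fibroblasts and from other cell types. miR-199a-5p was at 0.389 and 0.378 in Csk+c-Src cells and at 0.501 and 0.527 in c-Src cells (log2 difference -0.42, adjusted p = 0.000429). miR-199b* was at 1.33 and 1.32 in Csk+c-Src cells and at 0.999 and 1.09 in c-Src cells (log2 difference 0.35, adjusted p = 0.00414). Over all 243 microRNAs, 15.6% were called higher and 29.2% lower. Of the 5 tested names of miR-199 and miR-214, mesenchymal microRNAs, 1 rose, 3 fell and 1 did not pass. With the percentile over all mouse microRNAs 2 rose and 1 fell, and under quantile normalisation 0 rose and 2 fell. The call of miR-199b* ended under quantile normalisation (adjusted p = 0.141) and in the unscaled table (adjusted p = 0.0806). miR-143, a smooth muscle and fibroblast microRNA, was at 0.144 and 0.131 in Csk+c-Src cells and at 0.107 and 0.111 in c-Src cells (log2 difference 0.34, adjusted p = 0.00419), and did not pass in the unscaled table (adjusted p = 0.0979). Epithelial markers were undetected, 0 of 12 in either group, as was the liver marker miR-122.

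A few markers of other tissues were detected. Of 2 endothelial names, 1 was detected, miR-126-3p, at 0.0395 and 0.0402 in Csk+c-Src cells and at 0.0638 and 0.0683 in c-Src cells (log2 difference -0.73, adjusted p = 0.000398). Of 5 muscle names, 2 were detected, with miR-1 and miR-133b undetected. The muscle list summed to 0.0396 and 0.0224 in Csk+c-Src cells, against 0.0479 and 0.0321 in c-Src cells, and its tested member miR-206 fell by 0.46 (adjusted p = 0.00212). Of 8 neural names 5 were detected, with miR-124 undetected, and they summed to 0.126 and 0.125 in Csk+c-Src cells, against 0.206 and 0.199 in c-Src cells. miR-338-3p above is 1 of these 5. Blood cell markers, 2 of 9 detected with miR-223 and miR-451 undetected, summed, with miR-155 as the brighter, to 0.270 and 0.283 in Csk+c-Src cells, against 0.276 and 0.297 in c-Src cells. The part of such cells in the results was not tested, and in RNA from whole cultures fewer cells of a type and less RNA per cell cannot be told apart.

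Whether Csk acts alike with and without added c-Src was asked by the interaction, the difference of Csk+c-Src and c-Src cells minus the difference of Csk and mock cells. limma called it for 123 of the 243 microRNAs (50.6%), 33 positive and 90 negative. After normexp with its offset, 1 was called (miR-199b*, 1.11, adjusted p = 0.0452). The interaction calls thus depend on the background correction or its offset, which were not told apart. miR-23b, miR-27b, miR-351 and miR-322 were not called: miR-27b differed by 1.0 with added c-Src and by 1.08 without it (interaction -0.08, SE 0.078, adjusted p = 0.435), and miR-322 by 1.5 and 1.20 (interaction 0.31, adjusted p = 0.0972). Within the X-linked cluster the interaction ran from 1.33 for miR-503 (adjusted p = 0.00135) to -1.15 for miR-542-3p (adjusted p = 0.0012).

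The widest gaps were in microRNAs that fell with Csk in the presence of added c-Src and were higher with Csk in its absence. For miR-146a the interaction was -4.35, with the difference of Csk and mock cells at 1.01 (adjusted p = 0.000202), and its size rests on the floor. miR-10a had an interaction of -3.03 (SE 0.13, adjusted p = 5.35e-05), reading 0.196 and 0.211 in Csk cells and 0.113 and 0.131 in mock cells. miR-721 had -2.95, which rests on the floor in Csk+c-Src and mock cells, miR-196a -1.99 and miR-146b -1.91. The reverse held for miR-143, which read 0.0299 and 0.0304 in Csk cells and 0.172 and 0.171 in mock cells (interaction 2.85, adjusted p = 2.03e-05), for miR-10b (2.14, with 0.0325 and 0.0327 in Csk cells, against 0.0992 and 0.106 in mock cells) and for miR-455 (2.14). Csk array 2 had the most excluded spots, and without it 49 of the 57 called interactions among the 76 microRNAs named here remained.

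**Figure D5:**
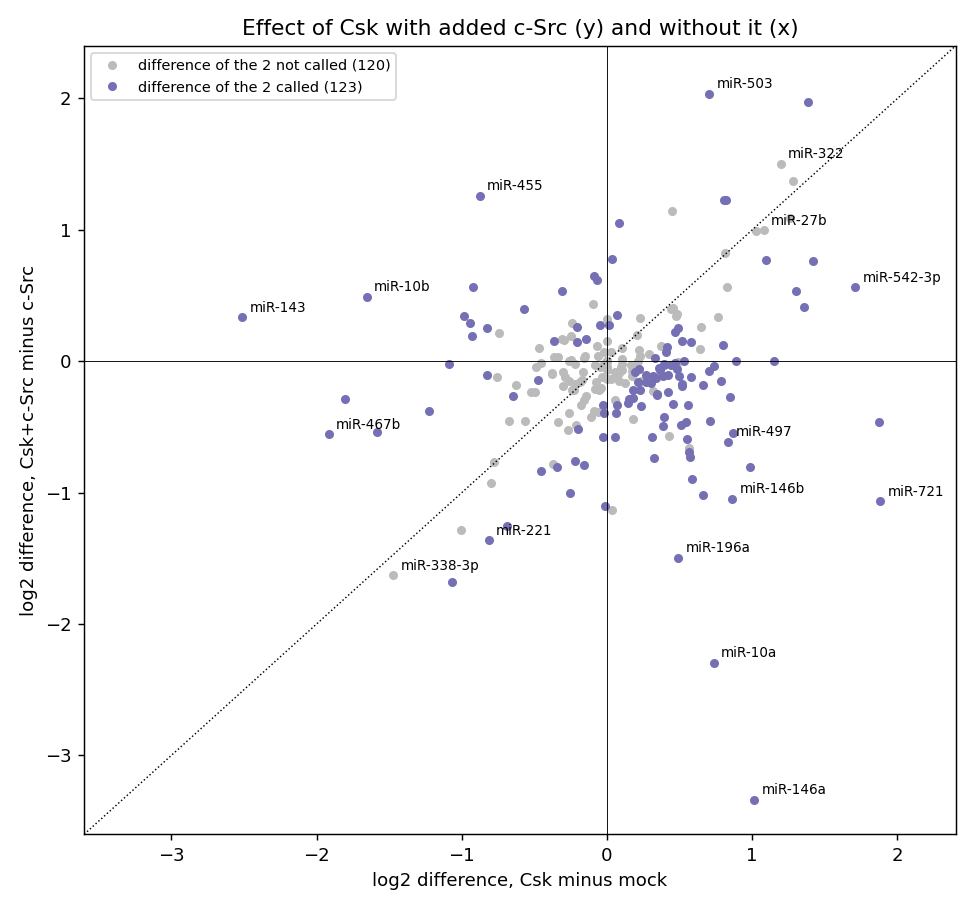
Each point is 1 of 243 microRNAs, placed by its log2 difference for Csk minus mock (horizontal) and for Csk+c-Src minus c-Src (vertical). Purple points had a called interaction (123), grey points did not (120), and the dotted line marks equal differences. miR-27b lies next to the line, miR-146a and miR-10a far below it and miR-143, miR-10b and miR-455 above it.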

How the data were processed

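Each array was hybridised with Cy3-labelled total RNA whose integrity number exceeded 9, per the labels' protocols; the platform is a one-colour Agilent mouse microRNA array. The deposited spot intensity values come from Agilent Feature Extraction 9.5.3.1, per the file headers, and are background-subtracted. The deposited series table holds the total signal per microRNA from the same software, with values under 1 set to 1 and no scaling between arrays.

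From these values, the processed signal of the 13000 non-control spots, outlier spots left out, was averaged per probe, summed per microRNA, scaled by the array's 75th percentile, floored, and put on the log2 scale. A model of 4 group means was fitted to the 8 arrays with limma 3.58.1 (R 4.3.3), leaving 4 residual degrees of freedom; its script was tested on simulated data. An exact permutation test of 2 against 2 arrays cannot go below a two-sided p of 0.333. Csk array 1 holds processed signals rounded by the depositors. The number of arrays limits the precision.

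A microRNA that neither array of 1 group detected has a bound in place of a fold, taken against the floor or, where larger, its own reading. The microRNAs named are the 15 largest rises and 15 largest falls without overlap, and bounds of at least 1.5-fold. A few were chosen by name (miR-21, miR-27b, miR-31, miR-99a, miR-145, miR-210, miR-542-3p). Added to these were some, not all, of the tested members of the lists and of the other arms of their hairpins. Counts over the 76 named microRNAs rest on this choice. The members and lists were chosen with earlier results of these data known. Sequences and positions are from RefSeq (GRCm38.p6): 97 array names were assigned to an arm and all 97 matched. Host genes were taken from its gene table by span, without regard to strand. Alternatives covered scaling, background, probe summary, detection filter, floor, trend, replicate block and each array left out.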

Additional observations from a re-analysis of the deposited data

Results flagged for a closer look

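The effect of Csk differed with the presence of added c-Src, by limma's interaction at an adjusted p under 0.05, for 57 of the 76 microRNAs named above, 17 positive and 40 negative. The values here are that interaction on the log2 scale, (Csk+c-Src minus c-Src) minus (Csk minus mock). Over all 243 microRNAs it was called for 123 (50.6%), 33 positive and 90 negative, with a median of -0.17. Many of the named microRNAs were chosen for a large difference of Csk+c-Src and c-Src cells, which is a term of the interaction. Their share is thus no result about them. After normexp 1 of the 57 was called, and 45 kept their sign. With the percentile over all mouse microRNAs 37 of the 57 kept sign and call, and under quantile normalisation 45 did. Under each of these scalings 53 kept their sign. The size rests on the floor for miR-146a and miR-872* (both Csk+c-Src arrays at it), miR-721 (both Csk+c-Src and both mock arrays), and miR-29a*, miR-34c, miR-467b and miR-669a (both Csk arrays).

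In 22 of the 57 both differences, Csk against mock and Csk+c-Src against c-Src, passed the threshold in opposite directions. The same count over all 243 was not made. Lower with Csk in the presence of added c-Src and higher without it were miR-146a (-4.35), miR-10a (-3.03), miR-721 (-2.95), miR-196a (-1.99), miR-146b (-1.91), miR-872 (-1.79), miR-680 (-1.68), miR-497 (-1.45), miR-195 (-1.41), miR-126-3p (-1.30), miR-210 (-1.26), miR-290-5p (-1.14), miR-30c (-0.88), miR-199a-5p (-0.81), miR-30a (-0.60) and miR-16 (-0.59). The opposite held for miR-143 (2.85), miR-10b (2.14), miR-455 (2.14), miR-199b* (1.33), miR-574-5p (0.85) and miR-193 (0.47).

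In others both differences passed in the same direction and differed in size. Among the rises these were miR-542-3p (-1.15), miR-542-5p (-0.94), miR-450a-5p (-0.77), miR-450b-3p (-0.66), miR-22* (-0.32) and miR-24 (-0.23), larger without added c-Src, and miR-503 (1.33), miR-322* (0.59), miR-99a (0.42) and miR-218 (0.41), larger with it. Among the falls, miR-222 (-0.61), miR-221 (-0.55), miR-29c (-0.54), miR-31 (-0.46) and miR-29a (-0.38) fell more with added c-Src, and miR-467b (1.36) and miR-669a (1.05) fell less. For miR-34c (-0.57), at the floor in Csk cells, the fall without added c-Src is a lower limit, so which fall was larger cannot be told.

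The remaining interactions had 1 of the 2 differences past the threshold. Those called with added c-Src were miR-872* (-1.48), miR-193b (-1.09), miR-29a* (-0.75), miR-29b* (-0.63), miR-31* (-0.63), miR-125b-5p (-0.55), miR-26a (-0.46), miR-30e (-0.37), miR-574-3p (0.97), miR-140* (0.74), miR-224 (0.74) and miR-140 (0.69). Those called between Csk and mock cells were miR-34a (-1.12), miR-21* (1.08), miR-15b (-0.47), miR-15a (-0.46) and let-7c (-0.43).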

How the results depend on the processing

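The count of 109 calls lay between 82 and 112 when 1 array was left out (34 to 56 higher, 45 to 73 lower), and the 123 interactions between 80 and 121. Normexp gave 18 calls, 7 higher and 11 lower, and 1 interaction, the 75th percentile over all mouse microRNAs 63 higher and 39 lower, and no detection filter 47 lower. Quantile normalisation gave 51 higher and 54 lower. The fit with the replicate block gave 121 calls, 42 higher and 79 lower, and among the named microRNAs it changed the calls of let-7c, miR-34a, miR-21 and miR-21*, which gained one; same-numbered arrays also shared a row of the slide, so this is the block for slide row as well. The deviations of same-numbered Csk+c-Src and c-Src arrays correlated at 0.438, and with 2 pairs this does not show that the numbers pair the arrays. Of 1657 values of the 76 named differences under 22 alternatives, 1496 kept direction and side of the threshold, 120 lost the call and 19 gained one. Of the 76, 45 kept both under every alternative but normexp, and 16 under normexp too.

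Sign changes occurred in 22 values. With the percentile over all mouse microRNAs miR-23a was at 0.187, miR-15a at 0.0678 and miR-15b at 0.200. Under quantile normalisation miR-15a was at 0.0512, miR-15b at 0.169 and miR-125a-5p at -0.167. In the unscaled table miR-125a-5p was at -0.059 and miR-27a at -0.0921. After normexp miR-721 was at 0.00309, miR-872* at 0.000384, miR-290-5p at 0.028 and miR-206 at 0.0107. With probes averaged on the log scale miR-23a was at 0.0166 and miR-15b at 0.0432, and with outlier spots kept miR-15b was at 0.00323. Leaving out 1 array put miR-23a between -0.112 and 0.106, miR-15b between -0.0912 and 0.119, miR-27a between -0.0475 and 0.173, and miR-125a-5p between -0.0826 and 0.218. The cause was not tested. Signal over background limits the dim microRNAs: in 8 of the 109 calls all arrays of 1 group were at the floor.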

Other observations

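The arrays also carry 39 viral microRNA names. Of these, 4 were detected on each array but Csk array 2, which detected 3, mock arrays included.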
